A study of Petromyzon marinus with 12 samples.

Results

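Genes of the germline, the piRNA pathway and meiosis were followed in whole sea lamprey (Petromyzon marinus) embryos, as 71 of the 22407 gene models in the deposited count table. They were chosen by symbol alone: every model whose symbol began with or matched one of a set of germline, piRNA, meiosis, spermatogenesis and egg coat names was kept. The rule uses no measured value, but it was drawn up with earlier results of these data known. The sea lamprey discards a portion of its DNA in somatic cells early in development while germ cells keep it, and the study asked what 2 histone methyltransferases do in embryos at that time. Libraries came from KMT5A knockout, KMT1 knockout and wildtype embryos at day 2 and at day 3, with 2 pools of about 100 snap-frozen embryos in each of the 6 groups, 12 libraries in all. Knockout embryos had received Cas9 protein with guide RNAs and a fluorescent dextran by injection and were checked for the dye at 24 hours, and all embryos were kept at 18 °C. The labels do not say whether wildtype embryos were injected, name no guide and give no rate of editing. They call the replicates biological but do not say that the pools came from separate parents, so p-values measure only the spread between these pools.

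PIWI-interacting RNAs (piRNAs) are small RNAs that guide PIWI proteins to transposon transcripts in germ cells. PIWI proteins carry the guides, Tudor domain proteins gather PIWI proteins and their partners in granules near mitochondria, and a set of enzymes and scaffolds makes and trims the guides. Many animal eggs also hold these transcripts as maternal RNA, together with germ plasm RNAs such as those of Vasa (DDX4) and NANOS proteins, which mark and protect the future germ cells. Meiotic genes build the chromosome axis and the synaptonemal complex and make and repair the breaks that become crossovers. KMT1 names a family of histone H3 methyltransferases that mark silent chromatin, and KMT5A methylates histone H4.

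The 71 models carried 44 symbols and fell into 7 groups by function. The piRNA pathway had 14 models, meiosis 12, germ plasm and germ-cell RNA-binding proteins 4, germ-cell signalling and intercellular bridges 5 (4 named KIT and 1 named TEX14), and the egg coat 20 (ZP2, ZP3 and ZP4). A further 10 were SPATA genes, named for spermatogenesis, and 6 (DAZAP1, DAZAP2, MOV10, TEX10 and 2 models of TDRD3) act in many tissues and matched by name only. The symbols are those of the protein each lamprey model matched best, at an identity of 23.5 to 82.8% (median 37.5%), so a symbol names the nearest known protein and does not show the same function. The label holds for the list only in part, since 26 of the 71 models are egg coat proteins or broadly acting. Some of the 10 SPATA models, such as SPATA2 and SPATA7, are also described below by roles outside germ cells. Whole embryos hold somatic cells beside any germ cells, so no level below is assigned to a cell type.

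Total counts per library were 61886305 to 89061394. In 2 day 3 libraries, replicate 1 of the KMT5A knockout and replicate 2 of the KMT1 knockout, the model that the deposited annotation types as ribosomal RNA took 7.82% and 3.72% of counts, against 0.201 to 0.305% in the other 10. A coding model with no name took another 7.52% and 3.27%, against 0.200 to 0.296%. Both are called libraries rich in ribosomal RNA below. The targeted gene KMT5A had 74.5 and 84.6 CPM (counts scaled to library size and composition) in KMT5A knockout embryos at day 3, against 197 and 208 CPM in wildtype. At day 2 it had 382 and 367 CPM in KMT5A knockout embryos, against 373 and 389 CPM in wildtype. SUV39H2, matched to the KMT1 label by name only, had 32.7 and 36.8 CPM in KMT1 knockout embryos at day 3, against 51.6 and 56.1 CPM in wildtype. At day 2 it had 145 and 151 CPM in the libraries labelled KMT1 knockout, against 120 and 119 CPM in wildtype, so neither gene was lower at that day.

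Of the 71 models, 64 passed the filter on low counts and were tested together with all 15615 genes that passed. The 7 that did not pass were NANOS2, a KIT model on chromosome 18 and another on an unplaced scaffold, MEIOB, SPATA22 and the SYCP2 model on chromosome 15, all listed at 0 in all 12 libraries, and TEX14, which had 261 counts in replicate 2 of the day 3 KMT1 knockout and 0 elsewhere. The table holds estimated counts, in which an exact 0 can be a failed estimate, so such a gene is described as listed at 0 and is given no fold change. Only 47 of the 71 models were above 0 in every library. PIWIL1 and the SYCP2 model listed at 0 are neighbours, 11983 bases apart on chromosome 15. A further 27 of the 71 models overlap another gene model on the opposite strand, and the strand setting of the counting is not given in the sources used here, so reads of such pairs cannot be told apart.

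At day 2, wildtype embryos held RNA of most piRNA pathway genes. Per kilobase of exon, GTSF1, a zinc finger cofactor of PIWI cleavage, stood highest of them at 54.9 CPM per kb, followed by the TDRD7 model on chromosome 13 at 27.3, ASZ1 at 20.04, TDRD6 at 11.8 and HENMT1 at 10.2 CPM per kb. Both PIWI genes were lower on the same scale, PIWIL1 at 4.04 and PIWIL2 at 1.18 CPM per kb, and TDRD12 was lowest at 0.156 CPM per kb. Among germ plasm genes DDX4 had 5.11, the NANOS homolog 2.70 and BOLL 0.421 CPM per kb. Of meiotic genes, SYCP2 on chromosome 12 had 7.40 and SYCP3 3.15 CPM per kb, and the others, among them DMC1 and SPO11, were between 0.0694 and 0.672 CPM per kb. The level per length of the 64 models was highest for an egg coat gene, a ZP3 model on an unplaced scaffold, at 240 CPM per kb.

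Between day 2 and day 3 of wildtype development the piRNA pathway genes fell. Of the 14 tested, 12 were lower at day 3 and 0 were higher at an adjusted p under 0.05 (edgeR quasi-likelihood test, Benjamini-Hochberg adjustment over all genes tested). Over all 64 members, 37 were lower (57.8%) and 4 were higher (6.25%), where 37.0% of all genes tested were lower and 29.0% higher, 66.1% in all. The median log2 fold change of the 13 piRNA genes above 0 in at least 1 library of each day was -1.41, against -0.11 over the 13016 genes of which the same holds. In libraries of whole embryos, fewer cells of a type and less RNA per cell cannot be told apart. CPM are relative to the other RNA of a library. A fall is therefore a lower share, and the amount of RNA per embryo was not measured.

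**Figure D1:**
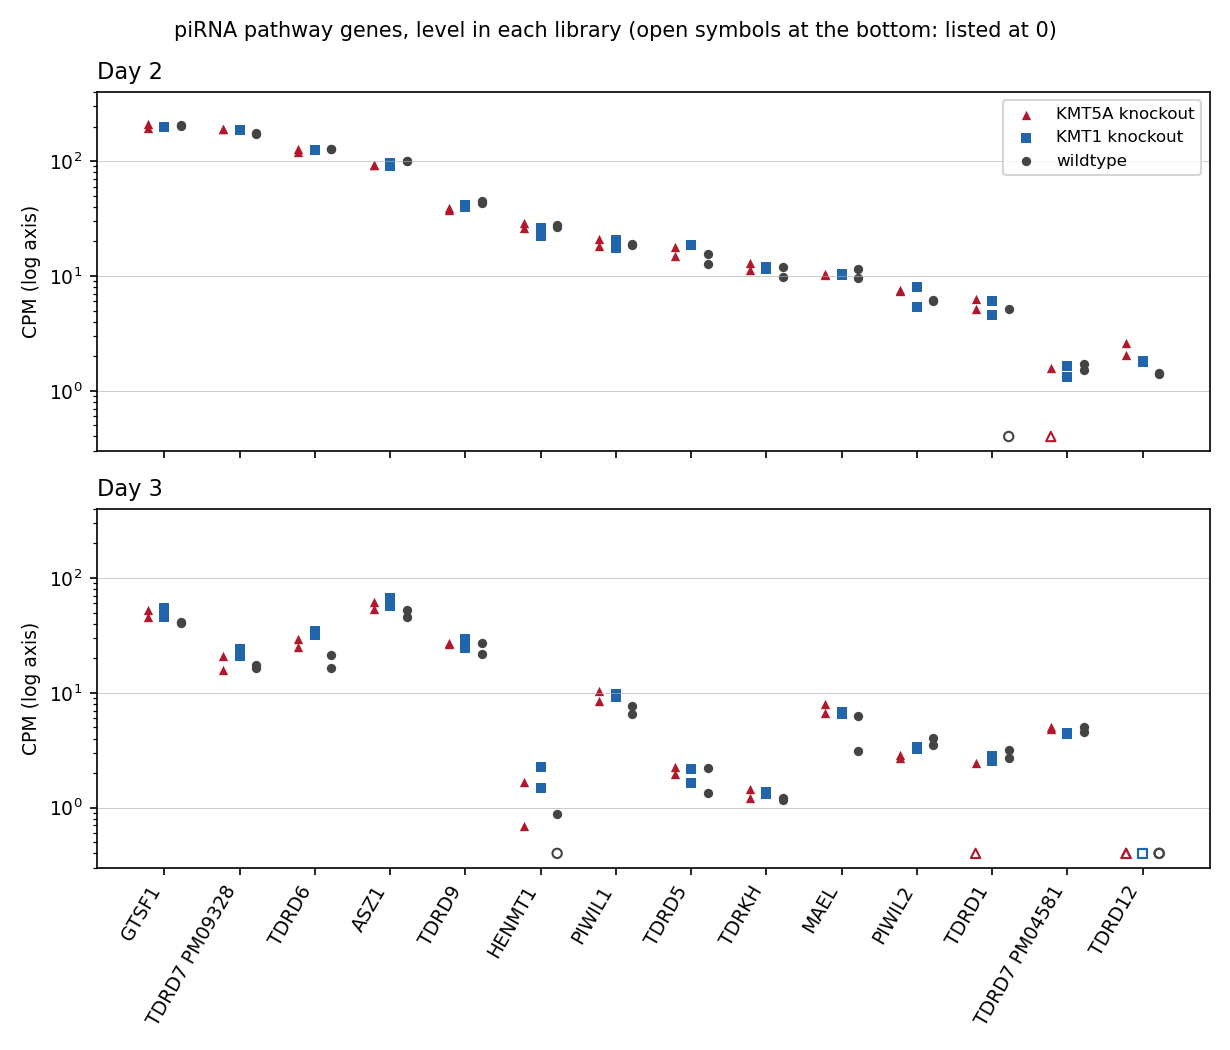
Level of each piRNA pathway gene in each library (CPM, log axis), day 2 above and day 3 below, with KMT5A knockout, KMT1 knockout and wildtype embryos side by side for each gene; each point is 1 library and an open symbol at the bottom marks a library in which the gene is listed at 0. GTSF1 stands between 195 and 211 CPM in the day 2 libraries and between 40.4 and 54.4 CPM in the day 3 libraries.

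PIWIL1, a PIWI protein of the cytoplasm (chromosome 15, start 4178913, end 4203072, plus strand, 21 exons, in the coordinates of the deposited annotation, which names no assembly), had 6.48 and 7.72 CPM at day 3, against 18.6 and 19.0 CPM at day 2. Its log2 fold change was -1.41 (SE 0.15, adjusted p 6.61e-05 by edgeR). PIWIL2, which in mice takes part in the amplification of guides (chromosome 8, start 8747493, end 8783851, minus strand), had 3.49 and 4.01 CPM at day 3, against 6.06 and 6.23 CPM at day 2. This was a log2 fold change of -0.71 (SE 0.20, adjusted p 0.0149 by edgeR). The groups do not overlap for either gene, but the PIWIL2 call was lost without replicate 2 of day 2 or replicate 1 of day 3 (adjusted p up to 0.0794).

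Tudor domain proteins, which bind methylated PIWI proteins, differed in how far they fell. The TDRD7 model on chromosome 13 had 16.3 and 17.4 CPM at day 3, against 177 and 174 CPM at day 2, a log2 fold change of -3.38 (SE 0.13, adjusted p 1.58e-07 by edgeR). TDRD6, which organizes germ plasm in zebrafish and the chromatoid body in mouse testis, had 16.4 and 21.5 CPM at day 3, against 126 and 128 CPM at day 2, a change of -2.75 (SE 0.13, adjusted p 5.96e-07 by edgeR). TDRD5 changed by -2.98 and TDRD9, a helicase, by -0.85 on the log2 scale, and both were called. TDRD12 was listed at 0 in both day 3 libraries and had 1.39 and 1.43 CPM at day 2. The other TDRD7 model, on an unlocalized sequence of chromosome 74, was not called, with 4.60 and 5.04 CPM at day 3, against 1.51 and 1.72 CPM at day 2 (log2 1.58, SE 1.44, adjusted p 0.362 by edgeR). Its wildtype groups do not overlap. This model is listed at 0 in replicate 2 of the day 2 KMT5A knockout, a group of the same fit. TDRD1 had 2.69 and 3.20 CPM at day 3, and 5.16 CPM in 1 day 2 library and 0 in the other.

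The enzymes and mitochondrial scaffolds of the pathway fell as well. HENMT1, which methylates the ends of finished piRNAs, had 0.883 CPM in 1 day 3 library and was listed at 0 in the other, against 28.0 and 27.0 CPM at day 2. It was called lower (adjusted p 0.00345 by edgeR), and the size of its fold change rests on that 0. TDRKH, which tethers PIWI proteins to mitochondria, had 1.21 and 1.17 CPM at day 3, against 9.89 and 11.9 CPM at day 2, a log2 fold change of -3.20 (SE 0.17). GTSF1 had 40.4 and 41.3 CPM at day 3, against 204 and 206 CPM at day 2, a log2 fold change of -2.33 (SE 0.10). ASZ1, a scaffold of the outer mitochondrial membrane, changed by -1.02 and MAEL, needed for silencing in mouse testis, by -1.17 on the log2 scale. The MAEL value was -0.76 without replicate 1 of day 3, and its call was lost in a fit of the 4 compared libraries alone (adjusted p 0.0514). At day 3 ASZ1 was therefore the most abundant per length of the piRNA genes next to GTSF1, at 9.86 CPM per kb, where GTSF1 had 10.95 CPM per kb.

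Pathway genes outside the symbol rule did not all follow. Of 9 such models (8 symbols), 2 were lower and 4 higher at day 3, where 37.0% of all genes tested were lower and 29.0% higher. FKBP6, a cochaperone of PIWI loading, changed by -3.29 (SE 0.23) and WDR77 by -1.54 (SE 0.09) on the log2 scale. PRMT5, the methyltransferase that marks PIWI proteins for Tudor domains and also modifies many other proteins, changed by 2.2 (SE 0.10).

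Germ plasm genes fell in 2 of 3 cases. DDX4 (Vasa), an RNA helicase of germ granules, on an unplaced scaffold, had 3.46 and 3.37 CPM at day 3, against 7.26 and 6.96 CPM at day 2, a log2 fold change of -1.06 (SE 0.19, adjusted p 0.00130 by edgeR). The NANOS homolog, a repressor of translation (chromosome 9, start 10491910, end 10501061, plus strand), had 4.48 and 3.47 CPM at day 3, against 15.3 and 12.7 CPM at day 2, a change of -1.82 (SE 0.26, adjusted p 0.000348 by edgeR). BOLL, of the DAZ family of RNA-binding proteins, had 5.70 and 4.43 CPM at day 3, against 1.63 and 1.57 CPM at day 2, and was not called (log2 1.66, SE 1.63, adjusted p 0.396 by edgeR). Of the 12 libraries 1, a day 3 KMT1 knockout, lists it at 0. Of 21 tested models of other germ cell specification genes, 10 were lower and 6 higher at day 3, and those with a fold change had a median of -0.40. Over all genes tested, 37.0% were lower and 29.0% higher.

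Meiotic genes were called lower about as often as all genes. Of 10 tested, 3 were lower and 0 higher. The share of lower genes (30%) is near the 37.0% over all genes tested, of which 29.0% were higher. SYCP2 on chromosome 12, of the chromosome axis, had 12.8 and 13.9 CPM at day 3, against 47.9 and 44.0 CPM at day 2, a log2 fold change of -1.78 (SE 0.10, adjusted p 1.11e-06 by edgeR). DMC1, the meiotic recombinase, was listed at 0 in all 6 day 3 libraries and had 2.36 and 2.43 CPM in wildtype at day 2; the model overlaps SUN1 on the opposite strand by 3867 bases. MEI1, needed for meiotic breaks in mice, was likewise listed at 0 in all 6 day 3 libraries and had 5.83 and 4.97 CPM in wildtype at day 2. SYCP3, the other axis protein, was not called, with 50.8 and 46.6 CPM at day 3, against 50.8 and 46.9 CPM at day 2 (log2 -0.00, SE 0.13). The nuclease SPO11, which makes meiotic breaks, had 2.38 and 1.57 CPM at day 3, against 1.40 and 1.55 CPM at day 2, and did not pass the test.

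The remaining meiotic models were low. Of these, 3 models matched MEIOC, which in mice keeps germ cells in the meiotic program, and 1 matched MEIOSIN, which in mice helps to start it and had 0.489 and 0.973 CPM at day 3, against 0.485 and 0.447 CPM at day 2. The MEIOC model on chromosome 34 had 4.79 and 3.65 CPM at day 3, against 4.0 and 2.95 CPM at day 2, and its groups overlap. The other MEIOC models, on chromosomes 2 and 4, were at or below 1.80 CPM in wildtype at day 2 and listed at 0 in at least 1 wildtype library at day 3. TEX11, of crossover formation, was listed at 0 in all 6 day 3 libraries and in 3 of the 6 day 2 libraries. Among 24 tested models of other meiosis genes, 11 were lower and 7 higher at day 3, where 37.0% of all genes were lower and 29.0% higher. The largest declines above 0 in both days were in the SUN1 model that overlaps DMC1 (log2 -4.76, SE 1.35), REC114 (-4.19, SE 0.54) and an SMC1A model (-4.06, SE 0.28).

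**Figure D2:**
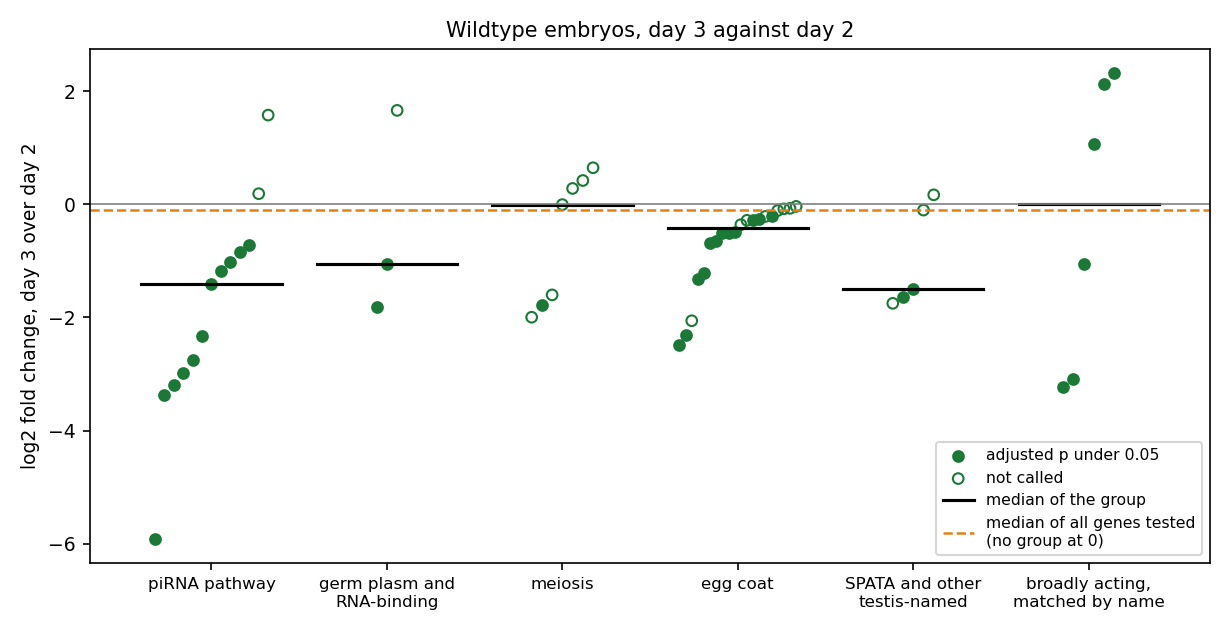
Log2 fold change from day 2 to day 3 in wildtype embryos for each gene above 0 in both groups, by function. The germ-cell signalling and bridges group is not drawn. Filled points passed an adjusted p of 0.05 and black lines are medians. The dashed line is the median of all 13016 genes tested that were above 0 in both groups (-0.11). The piRNA group has its median at -1.41, and the egg coat group at -0.42 with 20 of 20 points below 0.

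Egg coat genes, which encode the zona pellucida proteins of the matrix around the egg and are known for expression in ovary or, in some fishes, liver, were mostly lower at day 3. Of 20 models, 12 were lower (60%) and 0 higher, where 37.0% of all genes tested were lower and 29.0% higher. Their log2 fold changes were all below 0, with a median of -0.42, against -0.11 over all genes with no group at 0. Scaled by library totals alone, 19 were called lower and the median was -0.73. That scaling moved the median of all genes down by as much, as given below. The share of all genes called lower under it is not given here. They differed by place in the genome. ZP3 and ZP4 models lie next to each other in mixed runs, 6 on an unlocalized sequence of chromosome 79, 3 on scaffold 714 and 2 on scaffold 1096, with 1 more on scaffold 1371. These 12 had a median of -0.27 (range -1.31 to -0.07), and the 8 on placed chromosomes had a median of -0.86 (range -2.49 to -0.04). Both sets also differ in symbol, with 8 ZP3 and 4 ZP4 models in the first and 3 ZP2, 1 ZP3 and 4 ZP4 models in the second. For ZP4 alone the medians were -0.46 and -1.29. The ZP3 models of the first set had a median of -0.24, and the ZP3 of the second was at -2.49. The place was noticed after the values were seen and the difference between both sets was not tested. Copies of 1 gene can share reads, and how such reads were counted is not given in the sources used here, so the split among the ZP models is uncertain.

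The most abundant egg coat model per length, a ZP3 on scaffold 1096 (start 5206, end 13842, plus strand), had 325 and 308 CPM at day 3, against 377 and 357 CPM at day 2, a log2 fold change of -0.21 (SE 0.06, adjusted p 0.0160 by edgeR). By contrast a ZP4 model in a run of 3 on chromosome 9 (PM07959, start 6526251, end 6539914, plus strand) had 74.6 and 69.0 CPM at day 3, against 361 and 350 CPM at day 2, a log2 fold change of -2.31 (SE 0.08, adjusted p 7.21e-08 by edgeR). PM07957 of the same run, which starts at 6499852, had 66.6 and 64.9 CPM at day 3, against 95.8 and 91.9 CPM at day 2, a change of -0.51 (SE 0.07). The model between them, PM07958, had a mean of 0.629 CPM at day 3, against 2.62 CPM at day 2, and was not called (log2 -2.06, SE 1.87). The ZP3 model on chromosome 50 had 2.72 and 2.45 CPM at day 3, against 14.7 and 14.3 CPM at day 2, a change of -2.49 (SE 0.20). The called models of the chromosome 9 run therefore did not change by the same amount. Of the smaller called changes, those of the ZP3 models on scaffold 1096 and at the start of the chromosome 79 run, the ZP4 model on scaffold 714, a ZP2 model on chromosome 28 and the ZP4 model on chromosome 7 were each lost when at least 2 of the 4 libraries were left out in turn.

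The broadly acting genes moved in both directions, 3 higher and 3 lower of 6. DAZAP1, an RNA-binding protein, had 599 and 606 CPM at day 3, against 119 and 121 CPM at day 2 (log2 2.33, SE 0.06), and TEX10, of a ribosome assembly complex, changed by 2.13 (SE 0.08). MOV10, an RNA helicase, changed by 1.07 (SE 0.05). DAZAP2, a small adaptor protein, had 26.2 and 23.1 CPM at day 3, against 229 and 236 CPM at day 2 (log2 -3.24, SE 0.17). Both TDRD3 models, of a family of Tudor proteins that bind methylated histones, fell by 3.08 and by 1.06 on the log2 scale, the smaller change with a call that was lost without any 1 of the 4 libraries. Of the 9 SPATA models tested, 4 were lower and 1 higher, where 37.0% of all genes tested were lower and 29.0% higher. SPATA2 and SPATA20 were listed at 0 in both wildtype libraries at day 3, against 48.2 and 43.1 CPM and 17.4 and 18.5 CPM at day 2, and SPATA7, of photoreceptor cilia, was listed at 0 in the day 2 libraries and had 7.93 and 7.15 CPM in wildtype at day 3. The call of SPATA7 (adjusted p 0.0364 by edgeR) was lost without any 1 of the 4 libraries, as was that of a KIT model on chromosome 18 listed at 0 in both day 3 libraries (adjusted p 0.0230).

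Genes listed by name as oocyte or maternal were mostly lower at day 3 as well. No egg was sequenced, so a maternal origin of their RNA was not measured. Of 12 tested models of oocyte and maternal genes, 7 were lower and 1 higher at day 3, with a median log2 fold change of -1.81. Over all genes tested, 37.0% were lower and 29.0% higher. The largest declines above 0 in both days were in the 2 models of CPEB1, which controls translation of stored egg RNA (-4.12, SE 0.22 and -1.90, SE 0.13), and in LHX8 (-2.79, SE 0.43). Both CPEB1 models also stand in the germ cell specification list. Of 12 tested models of early germ layer genes, 9 were higher and 2 lower, with a median of 1.15. Of 6 tested models of sperm genes, 2 were higher and 2 lower. Scaling by library totals alone, with no factor for composition, moved the median of all genes at day 3 by -0.31 on the log2 scale and those of the groups by as much; the only group median that changed sign was that of the broadly acting genes, from 0.00 to -0.31.

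Knockout and wildtype embryos were compared at each day. Both knockouts were set against the same 2 wildtype libraries, so the 2 comparisons of a day share their wildtype values and are given side by side.

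**Figure D3:**
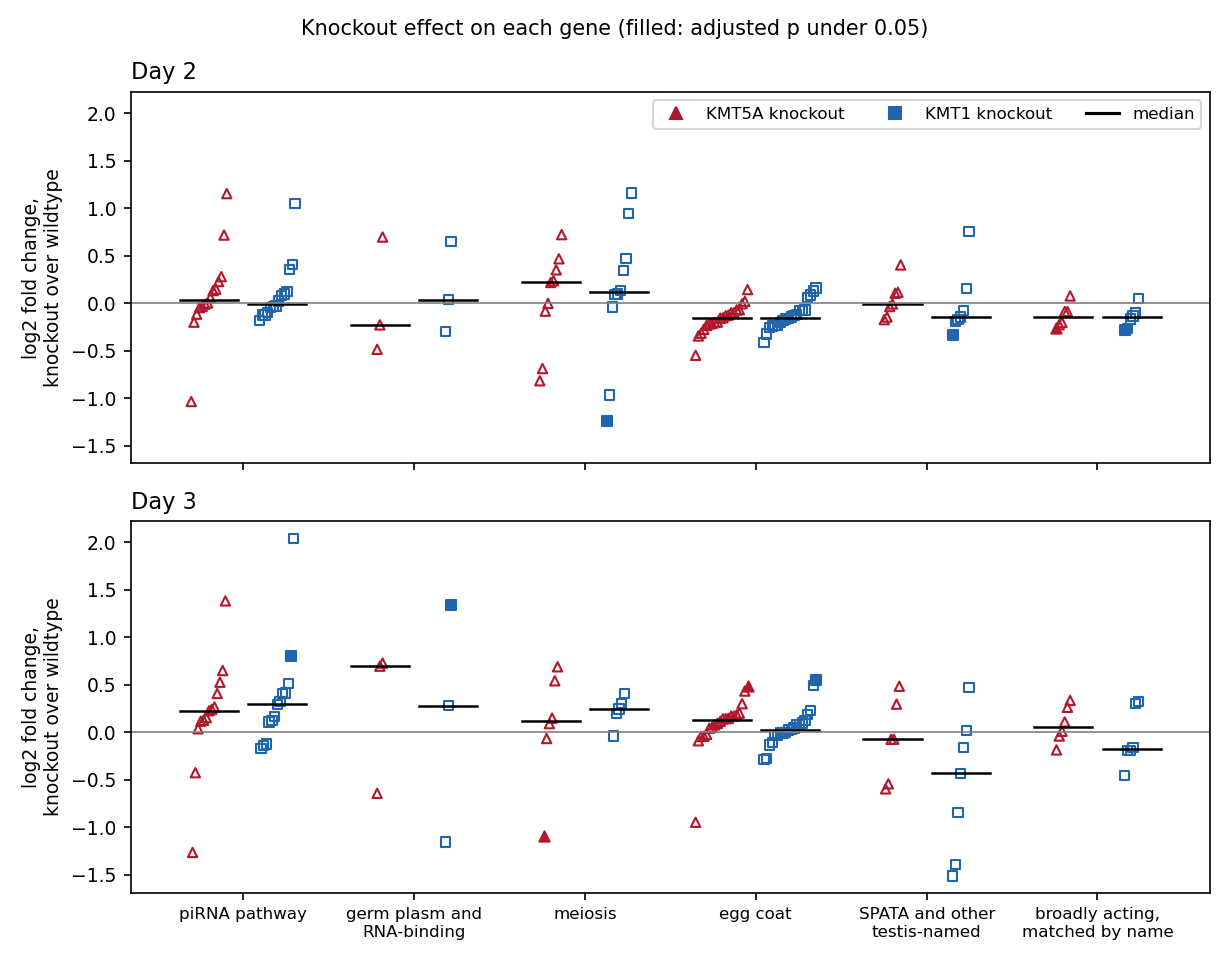
Log2 fold change of knockout over wildtype for each gene above 0 in both groups, by function, at day 2 (top) and day 3 (bottom). The KMT5A knockout is left and the KMT1 knockout right within each group of genes. The germ-cell signalling and bridges group is not drawn. Filled symbols passed an adjusted p of 0.05 and black lines are medians. The lowest filled symbol at day 3 is SYCP3 in the KMT5A knockout, at -1.08.

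At day 3, SYCP3, which forms the lateral elements of the synaptonemal complex with SYCP2, was lower in the KMT5A knockout. It had 21.7 and 24.2 CPM in KMT5A knockout embryos, 40.9 and 53.9 CPM in KMT1 knockout embryos and 50.8 and 46.6 CPM in wildtype. The 2 KMT5A knockout libraries lie below the 4 others of that day, and the 6 day 2 libraries stood between 44.0 and 50.8 CPM. The log2 fold change of KMT5A knockout over wildtype was -1.08 (SE 0.13, adjusted p 0.00398 by edgeR), and that of KMT1 knockout over wildtype was -0.04 (SE 0.13, adjusted p 1 by edgeR). KMT5A knockout against KMT1 knockout gave -1.05 (SE 0.13, adjusted p 0.00721 by edgeR), and the KMT5A effect differed between day 3 and day 2 by -0.999 (SE 0.19, adjusted p 0.0160 by edgeR). The day 3 differences kept their call when any 1 of the libraries compared was left out (adjusted p up to 0.0188 against wildtype and 0.0263 between knockouts), and the difference between days lost it without replicate 2 of day 2 wildtype or replicate 1 of day 2 KMT5A knockout. Scaled by library totals alone, the difference between days had an adjusted p of 0.0522 by edgeR. In an edgeR fit of the 4 compared libraries alone, both day 3 differences had an adjusted p above 0.05 (0.0953 and 0.468). Such fits called 0 members in any comparison at day 3. The share of all genes they called is not given here, so that 0 is not read as a result about the members.

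SYCP3 and KMT5A lie on the same chromosome, and the genes around SYCP3 were lower too. SYCP3 is on chromosome 21 (start 1443734, end 1474148, plus strand, 10 exons), 10.5 Mb from KMT5A (start 11963808, end 11985404). Within 500 kb of the start of SYCP3, 20 other genes were above 0 in all 12 libraries. In the KMT5A knockout at day 3, 17 of these 20 were called lower (85%), with a median log2 fold change of -0.87, where 2.23% of the 10935 such genes of the whole table were called lower. Over the whole chromosome 71 of 165 genes other than SYCP3 were lower (43.0%), KMT5A itself among them, with a median of -0.51. In the KMT1 knockout at day 3, 0 of the 20 neighbours were called, with a median of -0.07, where 1.93% of such genes of the whole table were called lower. At day 2, 5 of the 20 were lower in the KMT5A knockout (25%), with a median of -0.15, and 3 in the KMT1 knockout (15%), with a median of -0.09, where 8.999% and 9.67% of such genes were lower. Of the 5 genes more than 500 kb before SYCP3, on the side away from KMT5A, 0 were called lower in the KMT5A knockout at day 3, and their median was 0.24. The window was chosen after the values were seen. SYCP3 also overlaps PACSIN2 and EMC10 on the opposite strand, by 2129 and 12225 bases, so its own level is uncertain. TEX11, the other meiotic gene on chromosome 21, was listed at 0 in all day 3 libraries.

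**Figure D4:**
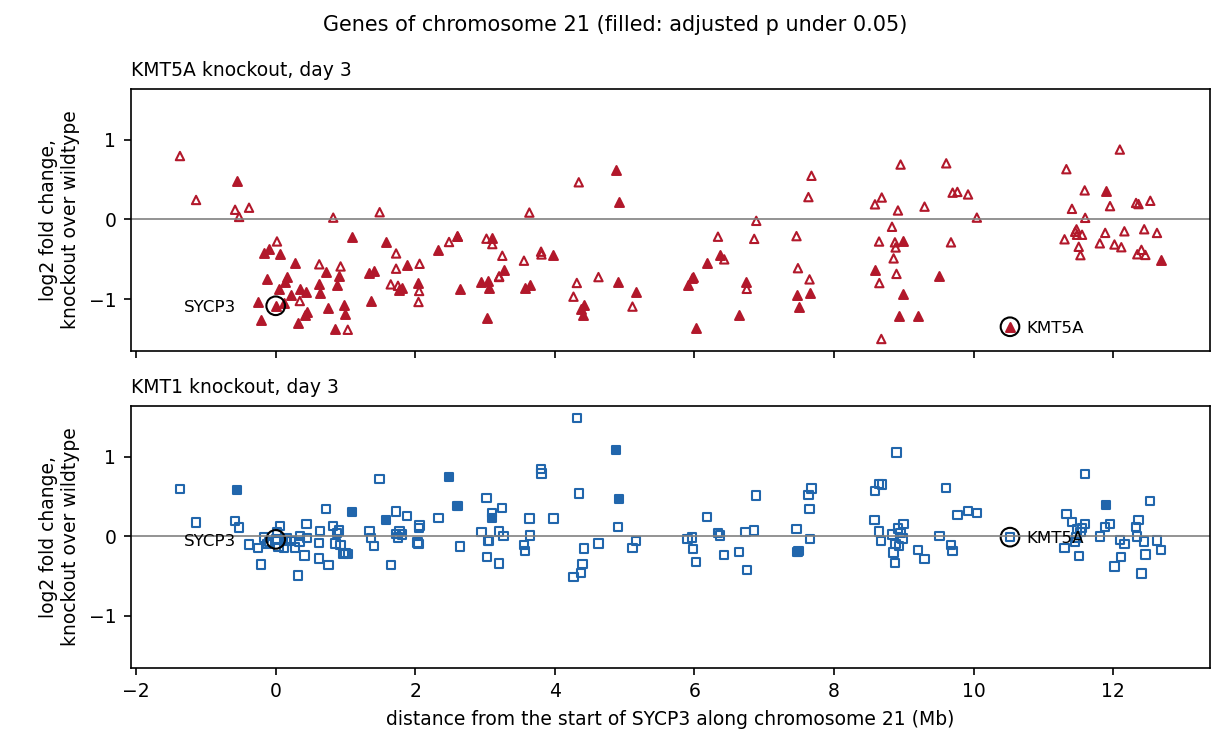
Log2 fold change of knockout over wildtype at day 3 for the genes of chromosome 21 that were above 0 in all 12 libraries, against distance from the start of SYCP3 (Mb), for the KMT5A knockout (top) and the KMT1 knockout (bottom); filled symbols passed an adjusted p of 0.05, and SYCP3 and KMT5A are circled. Without SYCP3, 71 of 165 genes were called lower in the KMT5A knockout and 1 of 165 in the KMT1 knockout. In the KMT5A knockout SYCP3 stood at -1.08 and KMT5A at -1.35.

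Besides SYCP3, the KMT5A knockout at day 3 had 2 members higher, so 3 of 64 were called (4.69%), against 5.3% of all genes tested, 3.33% higher and 1.97% lower. Scaled by library totals alone, the share of higher among all calls in this comparison was 35.7%, where it was 62.8% with composition factors. In the KMT1 knockout at day 3, 4 of 64 members were higher and 0 lower (6.25%), against 6.26% of all genes tested, 4.67% higher and 1.59% lower. Neither share stands apart from that of all genes. Without the 2 libraries rich in ribosomal RNA, neither day 3 knockout group holds a replicate. The share of members called in that setting is therefore not compared with that of all genes.

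TDRD6 was higher in the KMT1 knockout at day 3. It had 29.6 and 25.0 CPM in KMT5A knockout embryos, 34.5 and 31.6 CPM in KMT1 knockout embryos and 16.4 and 21.5 CPM in wildtype, so that every knockout library lies above both wildtype libraries. The log2 fold change was 0.53 (SE 0.13, adjusted p 0.0604 by edgeR) in the KMT5A knockout and 0.80 (SE 0.13, adjusted p 0.0117 by edgeR) in the KMT1 knockout, and the difference between the knockouts was -0.27 (SE 0.13, adjusted p 0.433). The call in the KMT1 knockout held when any 1 of the 4 libraries was left out (adjusted p up to 0.0320). At day 2 the 3 groups stood between 119 and 128 CPM, and the KMT1 effect was larger at day 3 than at day 2 by 0.83 (SE 0.18, adjusted p 0.0251 by edgeR). That difference between days lost its call without any 1 of the 4 day 2 libraries or replicate 1 of the day 3 KMT1 knockout. Scaling by library totals alone ended it as well (log2 0.70, adjusted p 0.151 by edgeR).

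Most other piRNA genes had values above wildtype at day 3 and did not pass the test. Of the 13 genes with no group at 0, TDRD6 included, 11 had a fold change above 0 in the KMT5A knockout and 10 in the KMT1 knockout. The median log2 fold change was 0.23 in the KMT5A knockout and 0.30 in the KMT1 knockout, against -0.01 over all genes with no group at 0 in either comparison. Both knockout libraries lay above both wildtype libraries for 5 of 14 genes in the KMT5A knockout, where 20.7% of all genes tested did, and for 8 of 14 in the KMT1 knockout, where 22.0% did. PIWIL1 had 10.4 and 8.44 CPM in KMT5A knockout embryos, 9.68 and 9.22 CPM in KMT1 knockout embryos and 6.48 and 7.72 CPM in wildtype (log2 0.41, adjusted p 0.183, and 0.41, adjusted p 0.169). PIWIL2 had 2.70 and 2.89 CPM in KMT5A knockout embryos, 3.39 and 3.27 CPM in KMT1 knockout embryos and 3.49 and 4.01 CPM in wildtype, so it lay below wildtype in both (log2 -0.42 and -0.17, not called). Leaving out the 2 libraries rich in ribosomal RNA leaves 1 library in each day 3 knockout group. With that single KMT1 knockout library, the log2 fold change was 0.91 for TDRD6 and 0.56 for the TDRD7 model on chromosome 13. For ASZ1 it was 0.49 and for GTSF1 0.46. The library kept is the higher of the 2 KMT1 knockout libraries for each of these genes. Scaled by library totals alone, the piRNA median of the KMT5A knockout was 0.05 while that of all genes moved by -0.13, and that of the KMT1 knockout was 0.24.

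The NANOS homolog was the germ plasm gene that differed. At day 3 it had 6.60 and 6.59 CPM in KMT5A knockout embryos, 7.29 and 12.8 CPM in KMT1 knockout embryos and 4.48 and 3.47 CPM in wildtype. It was called in the KMT1 knockout (log2 1.34, SE 0.26, adjusted p 0.0234 by edgeR) and not in the KMT5A knockout (log2 0.73, SE 0.26, adjusted p 0.163 by edgeR). Both KMT1 libraries differ from each other by more than both wildtype libraries do, and the higher of the 2 is rich in ribosomal RNA. Without that library and its KMT5A counterpart the value was 0.92, which rests on 1 KMT1 knockout library. Without replicate 2 of wildtype the call was lost. Scaling libraries by their totals alone ended the call as well (log2 1.25, adjusted p 0.0562 by edgeR). At day 2 the same gene had 22.0 and 23.3 CPM in KMT5A knockout embryos, 22.7 and 21.2 CPM in KMT1 knockout embryos and 15.3 and 12.7 CPM in wildtype, with no overlap and no call (log2 0.69, adjusted p 0.164, and 0.65, adjusted p 0.191). DESeq2 called this gene higher in both knockouts at both days.

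**Figure D5:**
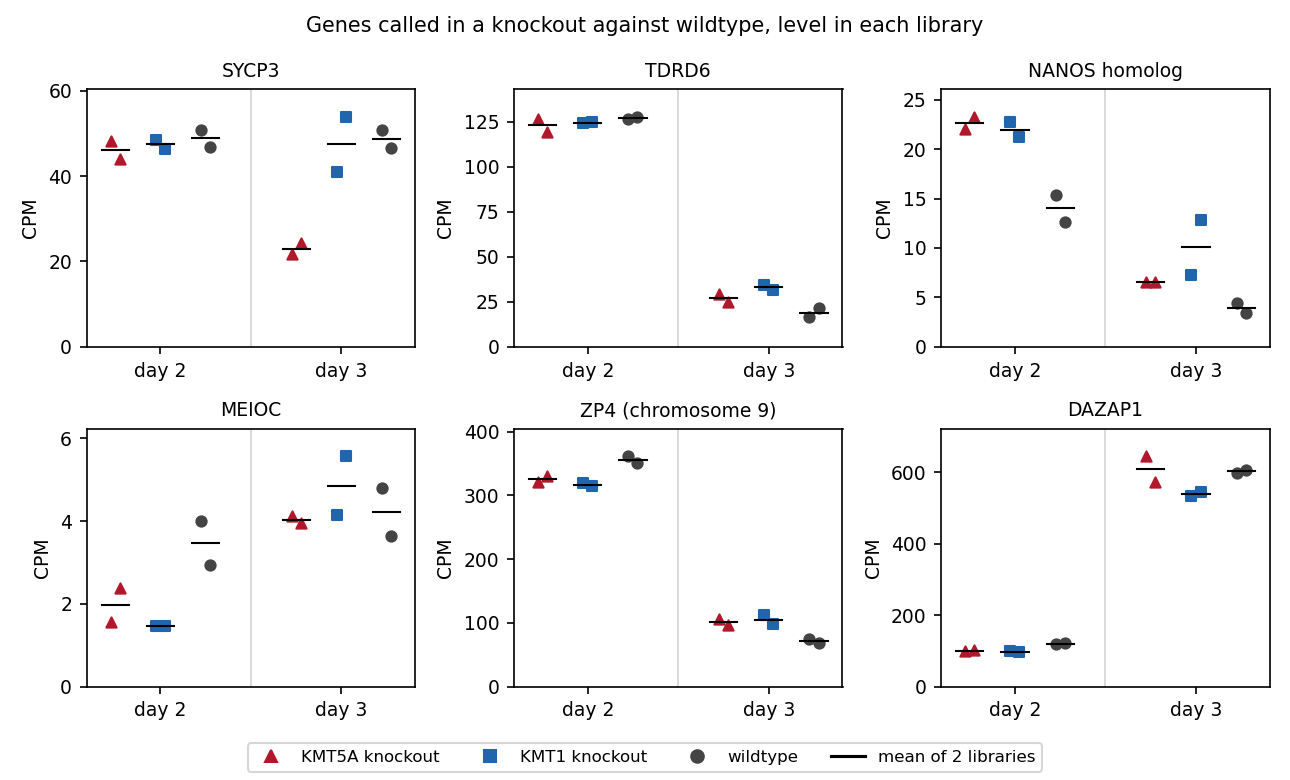
Level in each library (CPM, axes from 0) of 6 genes called in at least 1 knockout against wildtype, for KMT5A knockout, KMT1 knockout and wildtype embryos at day 2 and day 3; points are libraries and lines are means of 2. SYCP3 is low in the KMT5A knockout at day 3 (21.7 and 24.2 CPM), and TDRD6 and the ZP4 model lie above wildtype in both knockouts at day 3.

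DDX4 had 5.40 and 5.69 CPM in KMT5A knockout embryos at day 3, 3.44 and 4.88 CPM in KMT1 knockout embryos and 3.46 and 3.37 CPM in wildtype. It was not called in either (log2 0.70, adjusted p 0.0857, and 0.28, adjusted p 0.482), and it was called in the KMT5A knockout by DESeq2. Without the 2 libraries rich in ribosomal RNA, its log2 fold change there was 0.73, which rests on 1 KMT5A knockout library. BOLL had 3.02 and 3.48 CPM in KMT5A knockout embryos, 0 and 4.57 CPM in KMT1 knockout embryos and 5.70 and 4.43 CPM in wildtype.

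Among egg coat genes, the ZP4 model PM07959 on chromosome 9 was higher in both knockouts at day 3, at 106 and 96.0 CPM in KMT5A knockout embryos, 112 and 98.5 CPM in KMT1 knockout embryos and 74.6 and 69.0 CPM in wildtype. The log2 fold changes were 0.49 (SE 0.07, adjusted p 0.00875 by edgeR) and 0.55 (SE 0.07, adjusted p 0.00508 by edgeR). Both calls were lost without replicate 2 of day 3 wildtype (adjusted p up to 0.109 and 0.0533), and that of the KMT5A knockout also without its replicate 1, which is rich in ribosomal RNA. Scaling by library totals alone ended both calls as well (adjusted p 0.223 in the KMT5A and 0.1001 in the KMT1 knockout). The group as a whole moved little, with a median of 0.13 in the KMT5A knockout and 0.03 in the KMT1 knockout, and both medians were below 0 (-0.04 each) when libraries were scaled by their totals alone. At day 2 the group lay on the other side, with medians of -0.16 and -0.15, against -0.04 and -0.03 over all genes with no group at 0, and with 0 of 20 called in either knockout. Both knockout libraries were then below both wildtype libraries for 12 of 20 egg coat models in the KMT5A knockout and 16 of 20 in the KMT1 knockout, where 31.6% and 31.7% of all genes tested were.

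SPATA2, an adaptor of the deubiquitinase CYLD in tumor necrosis factor signalling, was called higher in both knockouts at day 3 from low levels. It had 1.91 and 2.44 CPM in KMT5A knockout embryos and 3.19 and 2.02 CPM in KMT1 knockout embryos and was listed at 0 in both wildtype libraries (adjusted p 0.000170 by edgeR and 0.000274). Since a 0 can be a failed estimate, no fold change is given.

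At day 2, 1 of 64 members was lower in the KMT5A knockout (1.56%), where 6.43% of all genes tested were lower and 9.07% called in all. In the KMT1 knockout 3 of 64 were lower (4.69%), where 6.79% of all genes were lower and 9.97% called in all. In neither knockout was a member higher, where 2.64% and 3.18% of all genes were. The MEIOC model on chromosome 34 (start 6716201, end 6726299, plus strand) had 1.56 and 2.38 CPM in KMT5A knockout embryos, 1.46 and 1.47 CPM in KMT1 knockout embryos and 4.0 and 2.95 CPM in wildtype. Its log2 fold change was -0.82 (SE 0.29, adjusted p 0.150 by edgeR) and -1.24 (SE 0.29, adjusted p 0.0343 by edgeR). DAZAP1 had 99.2 and 101 CPM in KMT5A knockout embryos, 100.1 and 96.4 CPM in KMT1 knockout embryos and 119 and 121 CPM in wildtype (log2 -0.26, SE 0.05, adjusted p 0.0230, and -0.29, SE 0.05, adjusted p 0.0131). SPATA5L1, an ATPase, was called in the KMT1 knockout (log2 -0.34, SE 0.08, adjusted p 0.0427 by edgeR). Each of these 3 genes lost its call when any 1 of the 4 libraries compared was left out (adjusted p up to 0.234), a setting that leaves 1 library in a group, which is then assumed to vary like the others.

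Of the 14 piRNA genes 0 were called in either knockout at day 2, and their medians were 0.03 and -0.00. Counts in this paragraph stand beside these shares over all genes tested. In the KMT5A knockout 6.43% were lower and 2.64% higher at day 2, and 1.97% lower and 3.33% higher at day 3. In the KMT1 knockout 6.79% were lower and 3.18% higher at day 2, and 1.59% lower and 4.67% higher at day 3. Of the 9 other piRNA pathway models, PARN, which trims the ends of RNAs, was higher in both knockouts at day 2 (log2 0.89, SE 0.05, in KMT5A and 1.04, SE 0.05, in KMT1) and lower in the KMT5A knockout at day 3 (-0.40, SE 0.05, adjusted p 0.00476 by edgeR). EXD1, of a piRNA complex in mice, was lower in both at day 2 (log2 -0.21 and -0.32), and WDR77 was higher in the KMT1 knockout at day 3 (0.39, adjusted p 0.0403 by edgeR). Of the 24 other meiosis models, 1 was lower in each knockout at day 2, a SUN1 model other than the one that overlaps DMC1 (log2 -1.04 and -0.81), and 0 were called at day 3. Of the 21 germ cell specification models, 2 were lower at day 2 in each, CXCR4, a chemokine receptor that guides migrating germ cells and other cells (-1.82 and -1.70), and PUM2 (-0.39 and -0.43). At day 3, 2 were higher in the KMT5A knockout, among them a PRDM1 model with a group at 0, and 1 in the KMT1 knockout, a CPEB1 model (1.07 and 1.13).

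Of 12 tested oocyte and maternal models outside the symbol rule, 2 were higher in each knockout at day 3, a CPEB1 model with the values just given and ZAR1, an oocyte RNA-binding protein (log2 0.42 in KMT5A and 0.44 in KMT1, adjusted p 0.0215 by edgeR and 0.0159). Among all genes tested at that day, 3.33% were higher in the KMT5A knockout and 4.67% in the KMT1 knockout. The median over models with no group at 0 was 0.58 over 8 models and 0.48 over 9 models. The median of all genes with no group at 0 was -0.01 in either comparison. In the KMT5A knockout an LHX8 model was called lower, and it was listed at 0 there. The share of lower genes in that comparison was 1.97% over all genes tested. At day 2 1 of the 12, CCNB3, was lower in each knockout (-0.46 and -0.50), where 6.43% and 6.79% of all genes tested were. Of early germ layer genes, 1 of 12, an OTX2 model, was lower in both knockouts at both days (log2 -0.45 to -0.61). At day 3, 1.97% of all genes tested were lower in the KMT5A knockout and 1.59% in the KMT1 knockout. Of the 6 sperm models 1, CFAP43, was higher in the KMT5A knockout at day 2, where 2.64% of all genes tested were.

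Direct comparison of the knockouts left SYCP3 as the only member called at day 3 (1.56% of 64, against 1.47% of all genes tested, 0.371% higher and 1.1% lower). At day 2, 0 of 64 members were called between KMT5A and KMT1 knockout, where 0.147% of all genes were (0.0128% higher and 0.134% lower), with log2 differences from -0.91 to 0.43. At an unadjusted p under 0.05 the count was 0 as well, and DESeq2 called 0. The change of each knockout effect from day 2 to day 3 was called for 4 members in the KMT5A knockout, 3 higher and 1 lower, where 9.65% of all genes tested were called (6.47% higher and 3.18% lower). For the KMT1 knockout it was called for 4 members, all higher, where 10.2% were (7.3% higher and 2.91% lower). Scaling by library totals alone moved the median of all genes in these contrasts by -0.20 and -0.12, and the share of higher among all calls was then 24.6% and 47.0%, where it was 67.1% and 71.5% with composition factors.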

How the data were processed

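Per the submitters' processing notes, HISAT2 2.2.1, StringTie 2.2.3 and DESeq2 1.42.1 were used; settings, strand and genome build are not given in the sources used here. The authors deposited estimated counts, 1 whole number per gene and library, not scaled to depth; rounding changed 0 values. The authors' deposited annotation gave other values, namely positions and protein matches. Counts were fitted with edgeR 4.0.16 in R 4.3.3 (glmQLFit, TMM, default low-count filter, 6 groups in 1 model, 6 residual degrees of freedom), with Benjamini-Hochberg adjustment over 15615 genes. An adjusted p under 0.05 made a call, and 9 comparisons were made. CPM use TMM-scaled totals. Standard errors come from the F statistic. The code was checked on simulated data. DESeq2 1.42.0, limma 3.58.1, pandas 2.3.3 and matplotlib 3.10.9 served for alternatives, the self-check, tables and figures.

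The members, function groups and gene lists were chosen with earlier results of these data known, and MEIOSIN and the NANOS homolog were placed in a group after the table was seen. The single genes named were drawn from core germline genes that were tested and from up to 8 rising and 8 falling called members per comparison. Values of single libraries are given for a part of them. Others have a fold change alone, such as TDRD5, TDRD9, ASZ1 and MAEL, or no value of their own, such as a KIT model on chromosome 61. The lists give at most 3 genes each. No column of per-sample values was left unused. Libraries were grouped by title, and no 2 libraries held identical counts.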

Additional observations from a re-analysis of the deposited data

Results flagged for a closer look

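The effect of the KMT5A knockout differed between day 3 and day 2 for 4 members by the interaction term of the edgeR fit. These were SPATA2 (adjusted p 0.000611), the ZP4 models PM07957 (log2 0.42, adjusted p 0.0358) and PM07959 (log2 0.62, adjusted p 0.0103) and SYCP3 (log2 -0.999, adjusted p 0.0160). For the KMT1 knockout the same term passed for 4 members as well, namely SPATA2 (adjusted p 0.000730), PM07957 (log2 0.41, adjusted p 0.0365), PM07959 (log2 0.72, adjusted p 0.00539) and TDRD6 (log2 0.83, adjusted p 0.0251). Both sets use the same wildtype libraries. SPATA2 was listed at 0 in wildtype at day 3, so it has no fold change. The call of PM07957 was lost without any 1 of the 8 libraries in the KMT1 knockout and without 7 of the 8 in the KMT5A knockout. That of PM07959 in the KMT5A knockout was lost without replicate 2 of day 3 wildtype or replicate 1 of the day 3 KMT5A knockout. Scaled by library totals alone, SPATA2 kept its call in both knockouts, and PM07957, PM07959, SYCP3 and TDRD6 lost theirs. No group held 4 libraries, so single libraries far from the others were not looked for.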

How the results depend on the processing

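With 2 pools in a group, small differences of low genes could not be detected, and estimated counts at 0 left 9 to 18 members at 0 per library. Over 50 single results and 623 values under other settings, 524 kept direction and call, 99 lost the call and 0 changed direction. These totals pool changes between days in wildtype with knockout effects, and a larger part of the knockout values lost the call. Counts of members called are given here as main value and alternatives. At day 2 the KMT5A count of 1 became 0 with DESeq2's size factors or library totals alone, and 3 in a fit of the compared groups, without both libraries rich in ribosomal RNA, and with DESeq2. The KMT1 count of 3 at day 2 became 1 with DESeq2's size factors and with the replicate block, 0 with library totals and 5 in a fit of the compared groups. At day 3 the KMT5A count of 3 became 0 in the fit of the compared groups, 5 without both libraries and 12 with DESeq2. The KMT1 count of 4 became 2 with library totals, 0 in the fit of the compared groups, 15 without both libraries and 16 with DESeq2, which also tested TEX14, above 0 in 1 library, and called it. For the change of effect between days, the KMT5A count of 4 became 1 with library totals and 10 with DESeq2. The KMT1 count of 4 became 1 with library totals, 11 without both libraries and 9 with DESeq2. Between knockouts at day 3 the count of 1 became 0 in the fit of the compared groups and 4 without both libraries and with DESeq2. The setting without both libraries leaves 1 library in each day 3 knockout group, so its day 3 calls rest on single libraries. Its KMT1 calls at day 3 include BOLL, listed at 0 in the KMT1 knockout library kept. They also include SPATA2 and a KIT model, both listed at 0 in both day 3 wildtype libraries. The share of all genes called under each of these settings is not given here. The counts therefore do not show whether calls changed more among members than among all genes. The cause of the changes in these counts was not tested. Leaving out 1 library at a time gave 0 to 1 (KMT5A) and 0 to 0 (KMT1) at day 2, 2 to 6 and 4 to 12 at day 3, 33 to 36 between days in wildtype, 2 to 6 and 2 to 9 for the change of effect, and 0 to 1 at day 2 and 1 to 4 at day 3 between knockouts; the 12 came without replicate 2 of the day 3 KMT1 knockout. Over 15 pairs of groups the correlation of same-numbered deviations was -0.188 to 0.0737, with 0 over 0.1. Such a correlation cannot show whether same-numbered pools shared parents or a day, which the labels do not say. With the replicate block the day 3 counts were 3 and 4, and 40 members were called between days.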
